A study of Homo sapiens with 12 samples.

Results

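Ribosome biogenesis was followed through 40 genes, MYC and 39 genes for nucleolar proteins, RNA polymerase I and the processing of ribosomal RNA, in 786-O cells treated with everolimus, SGI-1027 or both. The genes were taken by symbol from the table of raw counts, with no rule on their values. They were chosen with earlier results of these data known. All 40 were among the 17085 genes of the table, and all 40 passed the filter on low counts that left 12841 genes for testing. 786-O is an established human renal carcinoma cell line, and the labels give its genotype as WT in every library. The 4 groups of 3 libraries each were treated for 24 h with DMSO, the vehicle, with 5 µM everolimus (EVER), an inhibitor of the kinase mTOR, with 1.5 µM SGI-1027 (SGI), an inhibitor of DNA methyltransferases, or with 5 µM everolimus and 1.5 µM SGI-1027 together (COMB). For everolimus alone the treatment protocol names 10 µM instead of 5 µM, while the study's methods give the dose of the label, so the dose in that group is not certain. If the protocol is right, a difference between EVER and COMB cannot be told apart from a difference in dose. Separate cultures are not stated in the labels, so the p-values measure the spread between the 3 libraries of each group, which may be technical.

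Ribosome biogenesis starts in the nucleolus, where RNA polymerase I transcribes the ribosomal RNA genes into a long precursor. Small nucleolar ribonucleoproteins (snoRNPs) modify this precursor, and large sets of assembly factors cut, fold and load it with ribosomal proteins to give the small and the large ribosomal subunit. MYC is a transcription factor that binds the E-box sequence and is known to drive many of these genes, and mTOR signalling is known to promote ribosome production.

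Total counts per library ranged from 37046231 to 41516976, and TMM scaling factors from 0.9895 to 1.012. SGI replicate 3 and DMSO replicate 1 stood apart from their groups. The chi-square per gene was 16.4 and 16.1 between SGI replicate 3 and the other SGI libraries, and 3.04 between those. It was 10.2 and 13 between DMSO replicate 1 and the other DMSO libraries, 3.58 between those, and 3.34 to 5.48 in the other groups. Without SGI replicate 3, the genes lower than in DMSO numbered 37 in EVER, 38 in SGI and 38 in COMB, as with it, and without DMSO replicate 1 they numbered 36, 38 and 38. All 8 renal epithelial markers examined (PAX8, PAX2, CDH6, EPAS1, CA12, VIM, KRT8 and KRT18) were detected in every library. Their summed levels were 8429 to 8841 CPM (counts scaled to a common library size) in DMSO and 9304 to 10158 CPM in the treated libraries. VIM alone held 221375 to 243521 of the 321921 to 353278 summed marker counts in DMSO. By the same test, 5 of the 8 were lower and 2 higher in EVER than in DMSO. In SGI 2 were lower and 3 higher, and in COMB 4 were lower and 2 higher. Of all tested genes, 27.2%, 32% and 32.8% were higher in EVER, SGI and COMB. The 7 leukocyte and endothelial markers together reached 8 to 27 counts per library. PTPRC and CD3E were at 0 in every EVER and SGI library and reached at most 1 count elsewhere. Among 14 proliferation genes, 13 were lower in EVER, 14 in SGI and 12 in COMB at an adjusted p under 0.05. As shares these were 92.9%, 100% and 85.7%, beside 29.2%, 30.6% and 33.4% of all tested genes. Their summed level was 3963 to 4133 CPM in DMSO, 2989 to 3050 CPM in EVER, 2673 to 2734 CPM in SGI and 2706 to 2768 CPM in COMB. The proliferation genes thus moved in the same groups as the ribosome biogenesis genes, and their part in the changes below was not tested.

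Per length, most of the 40 genes were expressed well above the middle of the transcriptome in DMSO, with a median of 31.5 FPKM (fragments scaled by gene length and library size) beside 5.86 FPKM for all tested genes. NPM1 was the highest at 544 ± 14.4 FPKM (SD, n = 3), followed by NCL at 297 ± 6.51 FPKM. NHP2 (132 ± 3.47 FPKM) and NOP56 (132 ± 5.30 FPKM) did not differ beyond their spread, and FBL (121 ± 4.14 FPKM) came next. MYC took position 24 of 40, at 26.7 ± 2.29 FPKM. At the low end stood WDR12 (6.05 ± 0.166 FPKM), POLR1B (5.76 ± 0.179 FPKM), UTP15 (2.40 ± 0.309 FPKM) and PPAN (1.28 ± 0.199 FPKM).

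Treated cells held less mRNA of nearly all of these genes relative to total mRNA. The 40 genes took between 0.612% and 0.624% of all counts in the DMSO libraries. They took between 0.382% and 0.386% in EVER, between 0.384% and 0.391% in SGI and between 0.397% and 0.401% in COMB. The treated libraries all lay below the DMSO libraries. NPM1 and NCL supplied a large part of these counts, and without them the shares were 0.383% to 0.384% in DMSO, 0.241% to 0.246% in EVER, 0.252% to 0.254% in SGI and 0.265% to 0.268% in COMB. In RNA from whole cultures, a change in the make-up of the cells and a change in RNA per cell cannot be told apart.

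Gene by gene, 37 of the 40 were lower in EVER than in DMSO (edgeR's quasi-likelihood test, adjusted p under 0.05), against 29.2% of all tested genes, and only MYC was higher, against 27.2% of all tested genes. In SGI, 38 were lower and MYC was higher, where 30.6% of all tested genes were lower and 32% higher. In COMB, again 38 were lower and MYC was higher, where 33.4% of all tested genes were lower and 32.8% higher. The median log2 fold change over the 40 genes was -0.76 in EVER, -0.66 in SGI and -0.61 in COMB, beside 0.00, 0.02 and 0.01 for all tested genes. Median levels were thus 0.591, 0.635 and 0.657 times the DMSO level. These 3 comparisons share the same DMSO libraries and are not independent of each other.

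**Figure D1:**
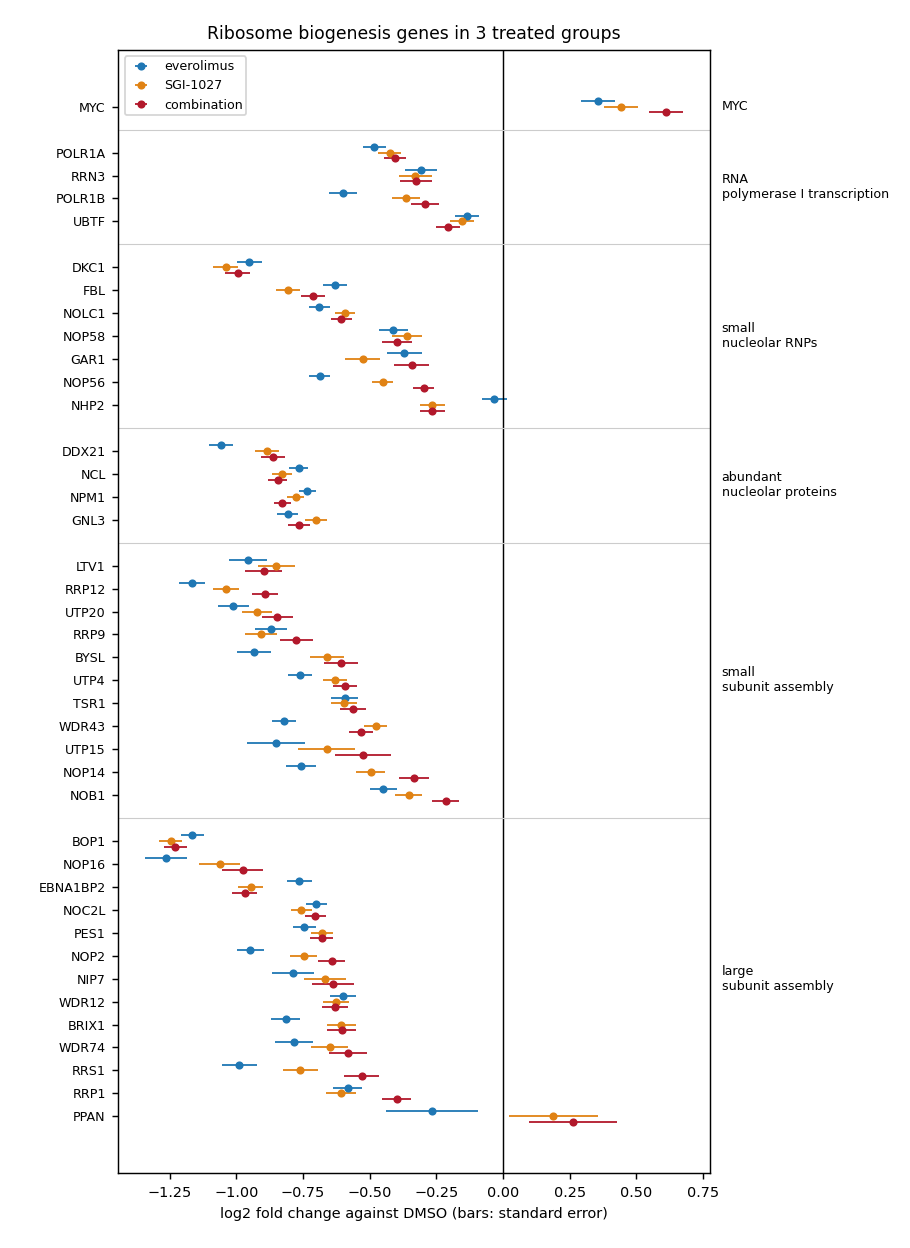
Log2 fold change against DMSO of each of the 40 genes (rows, grouped by role and sorted by the COMB value) in EVER (blue), SGI (orange) and COMB (red); points are edgeR estimates and bars their standard errors, with 3 libraries a group. MYC lies right of 0 in all 3 groups, PPAN lies on either side of it, and the other genes lie left of it, down to -1.26 for NOP16 in EVER.

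The libraries separated as clearly as the tests. Each EVER library lay below each DMSO library for 37 of the 40 genes, a pattern seen in 32.3% of all tested genes, and above for MYC, a pattern seen in 30.6%. In SGI, 38 genes lay below (30.7% of all tested genes) and MYC above (32.5%). In COMB, 38 genes lay below (34.7% of all tested genes) and MYC above (34.5%). Libraries overlapped with DMSO for PPAN in each treated group and for NHP2 in EVER. Replicates were tight, with a median coefficient of variation of 3.66% within a group and a highest one of 18.4%, for PPAN.

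Few changes reached a factor of 2. The study's own cut-off asks for a log2 fold change of 1 or more in either direction and an unadjusted p under 0.05. By it, 5 genes were lower in EVER (RRP12, UTP20, DDX21, NOP16 and BOP1), against 0.903% of all tested genes. In SGI 4 were lower (DKC1, RRP12, NOP16 and BOP1), against 1.07%, and in COMB BOP1 alone, against 2.71%. COMB counted 3 genes without DMSO replicate 1 and 3 without COMB replicate 2, and upper-quartile scaling left 3 genes in EVER and 2 in SGI. None of the 40 was higher past this cut-off in edgeR's test, in DESeq2 or in limma, where 3.89% of all tested genes were higher in EVER, 6.25% in SGI and 7.25% in COMB. MYC was the 1 gene higher at an unadjusted p under 0.05 without the fold minimum, in each group.

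MYC was the exception in direction. Its level was 132, 118 and 114 CPM in the DMSO libraries, 152, 160.3 and 153 CPM in EVER, 156, 153 and 185 CPM in SGI and 181, 191 and 184 CPM in COMB. Every treated library lay above every DMSO library, and the COMB libraries were the highest but for 1 SGI library that lay among them. MYC mRNA rose by a log2 fold change of 0.36 ± 0.06 (SE) in EVER (edgeR, adjusted p = 1.1e-04), 0.44 ± 0.06 in SGI (adjusted p = 8.0e-06) and 0.61 ± 0.06 in COMB (adjusted p = 1.1e-07). COMB was above EVER by 0.25 ± 0.06 (adjusted p = 0.0033), and the difference from SGI, 0.17 ± 0.06, did not pass the test (adjusted p = 0.065, 95% interval 0.04 to 0.30 before adjustment). That call depended on the setting, since MYC passed in DESeq2 (0.18, adjusted p = 0.0376), with no filter on low counts (0.18, adjusted p = 0.023), without DMSO replicate 1 (0.17, adjusted p = 0.0293) and without SGI replicate 3 (0.26, adjusted p = 4.2e-04). MYC mRNA was thus higher in the same libraries in which the genes below were lower.

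**Figure D2:**
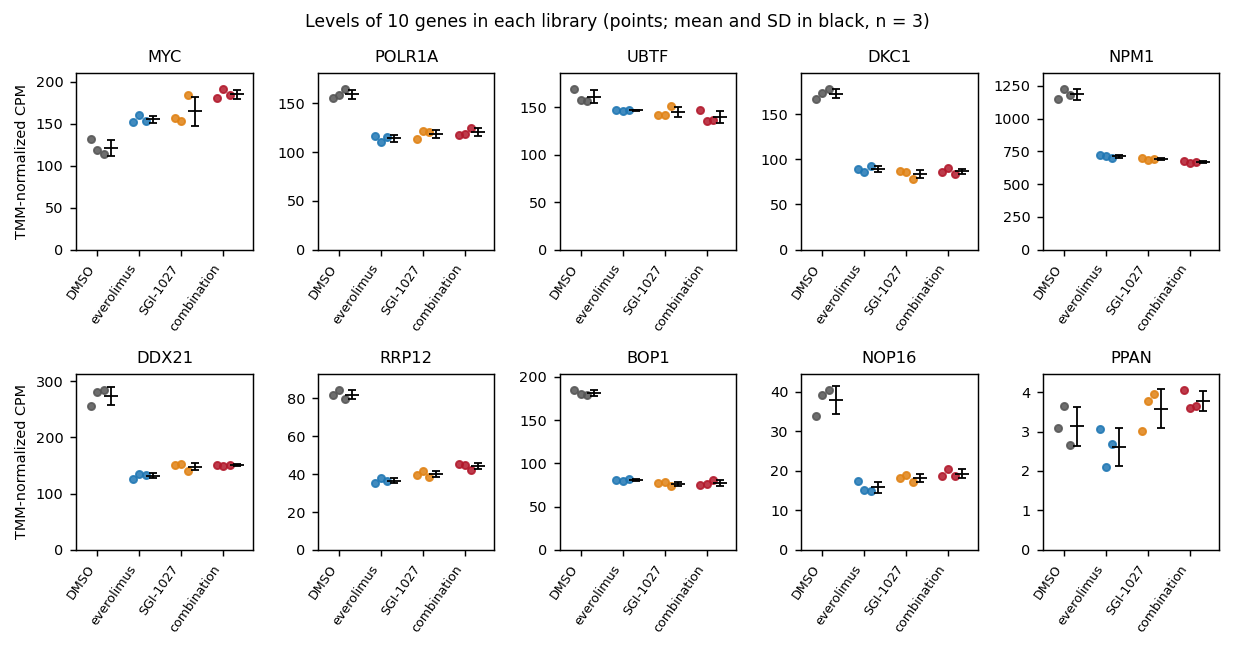
TMM-normalized CPM of 10 genes in each of the 12 libraries (points, coloured by group), with the mean and SD of the 3 libraries of a group in black; each axis starts at 0 and differs between genes. MYC rises from 121 CPM in DMSO to 185 CPM in COMB on average, PPAN overlaps between groups, and the other 8 genes are highest in DMSO.

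The 4 genes of RNA polymerase I transcription were all lower in each treated group. Their median log2 fold change, the nearest to 0 of the roles that fell, was -0.39 in EVER, -0.35 in SGI and -0.31 in COMB. POLR1A, the largest catalytic subunit of the polymerase, stood at 155, 159 and 165 CPM in DMSO, 117, 110.3 and 115 CPM in EVER, 114, 122 and 120.2 CPM in SGI and 118, 119 and 125 CPM in COMB. The treated groups lay together, well under DMSO. POLR1A fell by 0.48 ± 0.04 on the log2 scale in EVER (edgeR, adjusted p = 2.8e-08), by 0.43 ± 0.04 in SGI and by 0.41 ± 0.04 in COMB (adjusted p = 1.3e-07). POLR1B, the second subunit of the catalytic core, fell by 0.60 in EVER, 0.36 in SGI and 0.29 in COMB, and RRN3, the factor TIF-IA that brings the polymerase to its promoter, fell by 0.31, 0.33 and 0.32.

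UBTF, the factor UBF that keeps the ribosomal RNA genes open for transcription, changed least among the genes that fell in all groups. It stood at 169, 158 and 157 CPM in DMSO, 148, 146 and 147 CPM in EVER, 142, 142 and 151 CPM in SGI and 147, 135 and 137 CPM in COMB. The groups did not overlap with DMSO, but the gaps were smaller than the range of the DMSO libraries. UBTF fell by 0.13 ± 0.04 in EVER (edgeR, adjusted p = 0.014), by 0.15 ± 0.04 in SGI (adjusted p = 0.0055) and by 0.21 ± 0.04 in COMB (adjusted p = 4.5e-04). In EVER it did not pass the test without DMSO replicate 1 (-0.10, adjusted p = 0.061) or with upper-quartile scaling (-0.06, adjusted p = 0.246), and in SGI with upper-quartile scaling (-0.10, adjusted p = 0.0562).

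Of the 7 snoRNP genes, 6 were lower in EVER and 7 in SGI and in COMB, with medians of -0.63, -0.53 and -0.40. DKC1 (dyskerin), the pseudouridine synthase of the H/ACA snoRNPs and a part of telomerase, led this role. Its level was 167, 173 and 178 CPM in DMSO, 88.9, 86.1 and 93.0 CPM in EVER, 87.6, 85.6 and 78.7 CPM in SGI and 85.8, 90.0 and 84.2 CPM in COMB. The treated libraries lay together, far below DMSO. DKC1 was at 0.517, 0.486 and 0.502 times the DMSO level in EVER, SGI and COMB, and its log2 fold change in COMB was -0.99 ± 0.05 (edgeR, adjusted p = 2.8e-12).

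The partners of DKC1 in the H/ACA particle moved less. GAR1 fell by 0.37 in EVER, 0.53 in SGI and 0.34 in COMB. NHP2 stood at 102, 101 and 107 CPM in DMSO, 102, 99.1 and 102 CPM in EVER, 89.0, 87.3 and 81.7 CPM in SGI and 91.1, 85.3 and 81.6 CPM in COMB. EVER overlapped with DMSO for NHP2, with a log2 fold change of -0.03 (95% interval -0.13 to 0.07, edgeR adjusted p = 0.574), whereas NHP2 fell by 0.27 ± 0.05 in SGI and in COMB. NHP2 was lower in SGI than in EVER by 0.23 ± 0.05 (log2 fold change -0.23, adjusted p = 0.0015).

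The box C/D particle, which guides the 2′-O-methylation of ribosomal RNA, also changed unevenly. FBL (fibrillarin), its methyltransferase, fell by 0.63 in EVER, 0.81 in SGI and 0.71 in COMB. The scaffold proteins NOP56 and NOP58 fell by 0.69 and 0.41 in EVER, by 0.45 and 0.36 in SGI and by 0.30 and 0.40 in COMB. NOP56 was at 239 to 262 CPM in DMSO, 156 to 159 CPM in EVER, 182 to 191 CPM in SGI and 203 to 208 CPM in COMB, so that no 2 groups overlapped. NOLC1 (Nopp140), a chaperone of snoRNPs, fell by 0.69, 0.59 and 0.61.

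All 4 abundant nucleolar proteins were lower in each treated group, with medians of -0.79 in EVER, -0.80 in SGI and -0.84 in COMB. NPM1 (nucleophosmin), a chaperone of the outer nucleolus, is the gene with the highest level of the 40 per length. It stood at 1147, 1224 and 1182 CPM in DMSO, 722, 712 and 702 CPM in EVER, 699, 682 and 690.2 CPM in SGI and 674, 662 and 666 CPM in COMB. Treated libraries lay far below DMSO with little spread, and NPM1 fell by 0.73 ± 0.03 in EVER (edgeR, adjusted p = 7.0e-12), 0.78 ± 0.03 in SGI (adjusted p = 1.4e-12) and 0.83 ± 0.03 in COMB (adjusted p = 2.5e-13). RefSeq lists 50 pseudogenes of NPM1, and how the counting treated reads that fit several copies is not given in the sources used here, so its level is uncertain.

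NCL (nucleolin), an RNA-binding protein of the nucleolus, fell by 0.77, 0.83 and 0.85 in EVER, SGI and COMB. GNL3 (nucleostemin), a GTPase of proliferating cells, fell by 0.81, 0.70 and 0.77. DDX21, a helicase that acts on ribosomal RNA, stood at 256, 280.2 and 285 CPM in DMSO, 127, 135 and 133 CPM in EVER, 151, 153 and 140.2 CPM in SGI and 151, 149 and 152 CPM in COMB. EVER held the lowest DDX21 libraries, and the gene fell by 1.06 ± 0.05 in EVER, 0.89 ± 0.05 in SGI and 0.86 ± 0.05 in COMB (edgeR, adjusted p = 1.3e-11 in COMB).

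All 11 genes of small subunit assembly were lower in each treated group. Their median log2 fold change was -0.85 in EVER, -0.66 in SGI and -0.59 in COMB. RRP12, a factor for export and maturation of pre-ribosomes, stood at 81.8, 84.7 and 79.7 CPM in DMSO, 35.5, 37.7 and 36.6 CPM in EVER, 39.5, 41.7 and 38.7 CPM in SGI and 45.3, 45.1 and 42.3 CPM in COMB. All 4 groups were apart for RRP12, in the order EVER, SGI, COMB, DMSO from low to high. RRP12 fell by 1.17 ± 0.05 in EVER (edgeR, adjusted p = 3.6e-12), 1.04 ± 0.05 in SGI (adjusted p = 4.9e-12) and 0.89 ± 0.05 in COMB (adjusted p = 1.8e-11).

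The members of the small subunit processome, the large particle that folds and cuts the early precursor, fell to different degrees. UTP4, UTP15 and WDR43 belong to the complex that binds the precursor first. UTP4 fell by 0.76 in EVER, 0.63 in SGI and 0.59 in COMB, UTP15 by 0.85, 0.66 and 0.52, and WDR43 by 0.82, 0.48 and 0.53. UTP20, a very large scaffold protein, fell by 1.01, 0.92 and 0.85, and NOP14, which holds parts of the particle together, by 0.76, 0.50 and 0.33. RRP9, the protein particular to the U3 snoRNP, fell by 0.87, 0.91 and 0.77. The factors of later 40S maturation covered a wide range. LTV1, needed for export of the 40S particle, fell by 0.96, 0.85 and 0.90, BYSL (bystin) by 0.93, 0.66 and 0.61, TSR1, a GTPase-like factor, by 0.59, 0.60 and 0.56, and NOB1, the endonuclease that makes the final cut to 18S ribosomal RNA, by 0.45, 0.35 and 0.21.

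Of the 13 genes of large subunit assembly, 12 were lower in each treated group, with medians of -0.79 in EVER, -0.68 in SGI and -0.64 in COMB. The lowest value of the 40 genes in COMB was that of BOP1, which forms the PeBoW complex with PES1 and WDR12. BOP1 stood at 185, 180.2 and 179 CPM in DMSO, 80.7, 80.1 and 81.9 CPM in EVER, 77.3, 78.4 and 73.6 CPM in SGI and 74.6, 76.3 and 81.3 CPM in COMB. COMB overlapped with EVER and with SGI, which did not overlap each other. BOP1 was at 0.446 times the DMSO level in EVER, 0.421 in SGI and 0.427 in COMB. BOP1 fell by 1.16 ± 0.04 in EVER (edgeR, adjusted p = 6.3e-13), 1.25 ± 0.04 in SGI (adjusted p = 6.4e-14) and 1.23 ± 0.04 in COMB (adjusted p = 3.7e-14). Its partners fell less, PES1 by 0.74, 0.68 and 0.68 and WDR12 by 0.60, 0.63 and 0.63.

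NOP16, a factor of early 60S assembly, was the second-lowest of this role in COMB. It stood at 34.0, 39.1 and 40.5 CPM in DMSO, 17.4, 15.05 and 14.9 CPM in EVER, 18.3, 19.0 and 17.1 CPM in SGI and 18.7, 20.5 and 18.6 CPM in COMB. EVER overlapped with SGI and lay below COMB. NOP16 fell by 1.26 ± 0.08 in EVER, 1.06 ± 0.08 in SGI and 0.98 ± 0.08 in COMB (edgeR, adjusted p = 3.4e-10, 1.6e-09 and 3.3e-09).

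The remaining genes of this role included NOP2, a methyltransferase of 28S ribosomal RNA, which fell by 0.95, 0.75 and 0.64 in EVER, SGI and COMB, and EBNA1BP2, the human Ebp2 protein of early 60S particles, which fell by 0.76, 0.95 and 0.97. RRS1, which helps to bring the 5S particle into the 60S precursor, fell by 0.99, 0.76 and 0.53. BRIX1 fell by 0.81, 0.61 and 0.61. Of the other factors of pre-60S particles, NOC2L fell by 0.70, 0.76 and 0.70, NIP7 by 0.79, 0.67 and 0.64, WDR74 by 0.79, 0.65 and 0.58 and RRP1 by 0.58, 0.61 and 0.40.

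PPAN, a further 60S factor, was the 1 gene of the 40 that passed no test against DMSO. It is the gene with the lowest level per length. PPAN stood at 3.09, 3.64 and 2.67 CPM in DMSO, 3.05, 2.10 and 2.69 CPM in EVER, 3.03, 3.77 and 3.95 CPM in SGI and 4.06, 3.59 and 3.65 CPM in COMB. The groups overlapped with DMSO throughout. Its log2 fold change was -0.27 in EVER (95% interval -0.63 to 0.09, edgeR adjusted p = 0.197), 0.19 in SGI (-0.16 to 0.54, adjusted p = 0.334) and 0.26 in COMB (-0.08 to 0.61, adjusted p = 0.171). The median change of the 40 genes lay below each of these intervals. RefSeq also lists a readthrough transcript over PPAN, so reads could have been divided and its count is uncertain.

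Against the single drugs, few of these genes were lower in the combination. COMB was lower than EVER for 3 of the 40 genes (19.2% of all tested genes) and higher for 19 (20.1% of all tested genes), with a median difference of 0.12 (log2) beside 0.00 for all tested genes. The 3 lower genes were NHP2 (-0.23 ± 0.05, edgeR adjusted p = 6.8e-04), EBNA1BP2 (-0.20 ± 0.05, adjusted p = 0.0022) and NPM1 (-0.09 ± 0.03, adjusted p = 0.030). NPM1 did not pass in either limma fit (adjusted p = 0.0537 and 0.060) or without DMSO replicate 3, EVER replicate 1 or 2 or any 1 of the COMB replicates (adjusted p from 0.0507 to 0.121). Of the 19 higher genes, 8 were among the 11 of small subunit assembly and 7 among the 13 of large subunit assembly. The highest were PPAN (0.53 ± 0.17, adjusted p = 0.018, but 0.105 without EVER replicate 2 and 0.0642 without COMB replicate 1), RRS1 (0.46 ± 0.07, adjusted p = 2.7e-05), NOP14 (0.42 ± 0.06, adjusted p = 8.0e-06) and NOP56 (0.39 ± 0.04, adjusted p = 2.8e-07), picked out after their values were seen.

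Between COMB and SGI, 0 of the 40 genes were lower in edgeR's test, at an adjusted and at an unadjusted p under 0.05 (0 and 0 genes), in DESeq2 (0) and in limma (0), where 10.2% of all tested genes were lower. Higher in COMB were 5 genes, where 9.4% of all tested genes were higher: RRS1 (0.23 ± 0.07, adjusted p = 0.021), RRP1 (0.21 ± 0.06, adjusted p = 0.013), NOP14 (0.16 ± 0.06, adjusted p = 0.048), NOP56 (0.15 ± 0.04, adjusted p = 0.0088) and RRP12 (0.15 ± 0.05, adjusted p = 0.046). The median difference was 0.04. For the other 35 genes the 95% intervals of the difference ran from -0.27 to 0.42, and from -0.20 to 0.37 without PPAN. The count of 5 rests on single libraries: it was 1 without COMB replicate 2, and 3 without DMSO replicate 2, without EVER replicate 1, 2 or 3, without SGI replicate 1 and without COMB replicate 1.

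Between the single drugs, 13 of the 40 genes were called. SGI was lower than EVER for 3 genes (9.51% of all tested genes), which were NHP2 (-0.23), EBNA1BP2 (-0.18) and FBL (-0.18). EBNA1BP2 did not pass without EVER replicate 3 (-0.14, adjusted p = 0.0665), nor FBL without EVER replicate 1 (-0.15, adjusted p = 0.0563). SGI was higher than EVER for 10 genes (13% of all tested genes), among them WDR43 (0.34 ± 0.04, edgeR adjusted p = 1.6e-05), BYSL (0.27 ± 0.07, adjusted p = 0.0054) and NOP14 (0.26 ± 0.06, adjusted p = 0.0025), again picked out after their values were seen. The 95% intervals of the other 27 genes ran from -0.30 to 0.81, and from -0.30 to 0.43 without PPAN. Across all 4 groups the lowest mean was in EVER for 24 genes, in SGI for 9, in COMB for 6 and in DMSO for 1, which was MYC. This order was not counted over all tested genes. It takes no account of the spread between libraries, and for 27 of the 40 genes SGI and EVER did not differ by the test.

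Had the log2 changes of the single drugs added up, the combination would have shown their sum, which had a median of -1.43 over the 40 genes. The measured median in COMB was -0.61. This interaction was tested as the change in COMB minus the sum of the changes in EVER and SGI. It was above 0 for 36 of the 40 genes (edgeR, adjusted p under 0.05), against 23.6% of all tested genes, with a median of 0.76 beside -0.01 for all tested genes. It was below 0 for 0 genes, against 22.1% of all tested genes, with 1 gene at an unadjusted p under 0.05 (MYC) and 0 in DESeq2 and in limma. Without DMSO replicate 1 and without SGI replicate 2, MYC passed the test, which gives a count of 1 each. For the 14 proliferation genes the interaction was above 0 in 12 (85.7%) and below 0 in 0, with a median of 0.48.

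Among the members, the interactions with the smallest p were those of BOP1 (1.18 ± 0.06, edgeR adjusted p = 1.0e-10), RRP12 (1.31 ± 0.07, adjusted p = 2.3e-10) and DDX21 (1.08 ± 0.06, adjusted p = 8.0e-10). For BOP1 the sum of the single changes was -2.41 and the combination -1.23, and COMB differed from EVER by -0.06 and from SGI by 0.02. The interaction was not called for MYC (-0.19 ± 0.09, adjusted p = 0.095), UBTF (0.08 ± 0.06, adjusted p = 0.300), NHP2 (0.03 ± 0.07, adjusted p = 0.718) and PPAN (0.34 ± 0.24, adjusted p = 0.256).

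**Figure D3:**
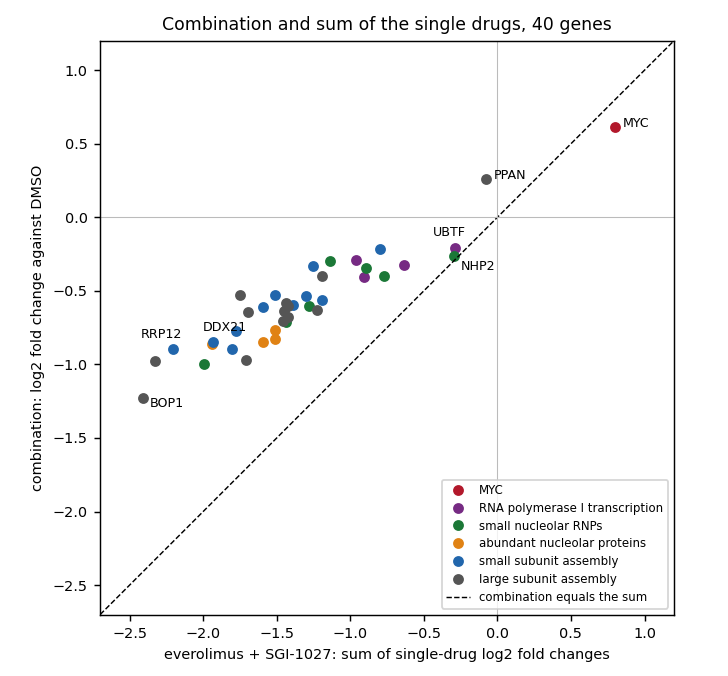
Log2 fold change of each of the 40 genes in COMB (vertical axis) against the sum of its log2 fold changes in EVER and SGI (horizontal axis), coloured by role; on the dashed line the combination equals the sum. All genes but MYC lie above the line. The difference from the line was not called at an adjusted p under 0.05 for MYC, UBTF, NHP2 and PPAN. The median over the 40 genes was -0.61 on the vertical and -1.43 on the horizontal axis. Both axes use the same DMSO libraries.

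The wider pathway was described with 5 further lists (other RNA polymerase I subunits, small subunit processome and 40S maturation, large subunit assembly and export, snoRNP and nucleolar chaperones, and RNA exosome and trimming), with 146 tested genes that are none of the 40. Of these, 124 were lower and 3 higher in EVER, 124 lower and 4 higher in SGI and 113 lower and 4 higher in COMB (edgeR, adjusted p under 0.05). The lower genes were 84.9%, 84.9% and 77.4% of the lists, beside 29.2%, 30.6% and 33.4% of all tested genes. Their medians, -0.42 in EVER, -0.44 in SGI and -0.36 in COMB, lay between those of the 40 genes and those of all tested genes. The interaction was above 0 for 119 of them (81.5%) and below 0 for 4 (2.74%), beside 23.6% and 22.1% of all tested genes.

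Named by rule, the lowest and highest called genes of each list in COMB showed how uneven the pathway was. Of 11 other polymerase I genes, 6 were lower in EVER, 7 in SGI and 5 in COMB. As shares these were 54.5%, 63.6% and 45.5%, beside 29.2%, 30.6% and 33.4% of all tested genes. The lowest called in COMB were POLR1E, the subunit PAF53, at -0.93 and POLR1G at -0.30. POLR1F at -0.24 and POLR1D at -0.14 were the highest called. Of 50 small subunit genes, 44, 44 and 40 were lower (88%, 88% and 80%), with NOL6 at -1.13 and PWP2 at -1.86 as the lowest. A near-identical copy in RefSeq may share the reads of PWP2, so that its value is uncertain. The highest there were UTP25 at 0.58 and RIOK3, a kinase of late 40S particles, at 0.44. Of 45 large subunit genes, 41, 40 and 38 were lower (91.1%, 88.9% and 84.4%). MRTO4 at -1.16 and RPF2 at -0.89 were the lowest there, and NOP53 at 0.71 and ZNF622 at 0.51 the highest.

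The snoRNP and chaperone list had 13, 12 and 12 of 15 genes lower in EVER, SGI and COMB. These were 86.7%, 80% and 80%, beside 29.2%, 30.6% and 33.4% of all tested genes. RUVBL2, an ATPase of the complex that assembles snoRNPs and of chromatin remodellers, was at -1.10, NOL12 at -0.88, COIL at -0.31 and NOP10, the fourth protein of the H/ACA particle, at -0.18. The exosome and trimming list had 20, 21 and 18 of 25 genes lower (80%, 84% and 72%). POP1 and POP7, proteins of RNase MRP and RNase P, were at -0.76 and -0.69, and EXOSC1 at -0.25 and the exonuclease XRN2 at -0.11 were the highest called. Each value given here for a single gene is the log2 fold change in COMB against DMSO.

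The MYC network, the proteins that pair with MAX, compete with MYC or turn it over, had genes moving both ways. Of its 13 tested genes, 3 were lower and 5 higher in EVER, 3 lower and 8 higher in SGI and 2 lower and 6 higher in COMB (edgeR, adjusted p under 0.05). As shares these were 23.1% lower and 38.5% higher in EVER, 23.1% and 61.5% in SGI and 15.4% and 46.2% in COMB beside 29.2% and 27.2%, 30.6% and 32%, and 33.4% and 32.8% of all tested genes. MXD4 and MNT, which pair with MAX and repress E-box genes, rose. MXD4 changed by 1.51 in EVER, 1.35 in SGI and 1.10 in COMB (adjusted p = 1.9e-11 in COMB), and MNT by 0.62, 0.88 and 0.89 (adjusted p = 2.4e-08 in COMB). MXD1 (0.61, 0.84 and 0.80) and MXI1 (0.70, 0.51 and 0.73), of the same family, also rose and were named after their values were seen. MXD3 was higher in EVER (0.36) and lower in SGI (-0.21) and COMB (-0.36), and MYCBP, a protein that binds MYC, fell by 0.43, 0.80 and 1.12. MAX itself rose by 0.35 in COMB and was named after its value was seen. The interaction was below 0 for 6 of the 13 genes (46.2%) and above 0 for 2 (15.4%), beside 22.1% and 23.6% of all tested genes.

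**Figure D4:**
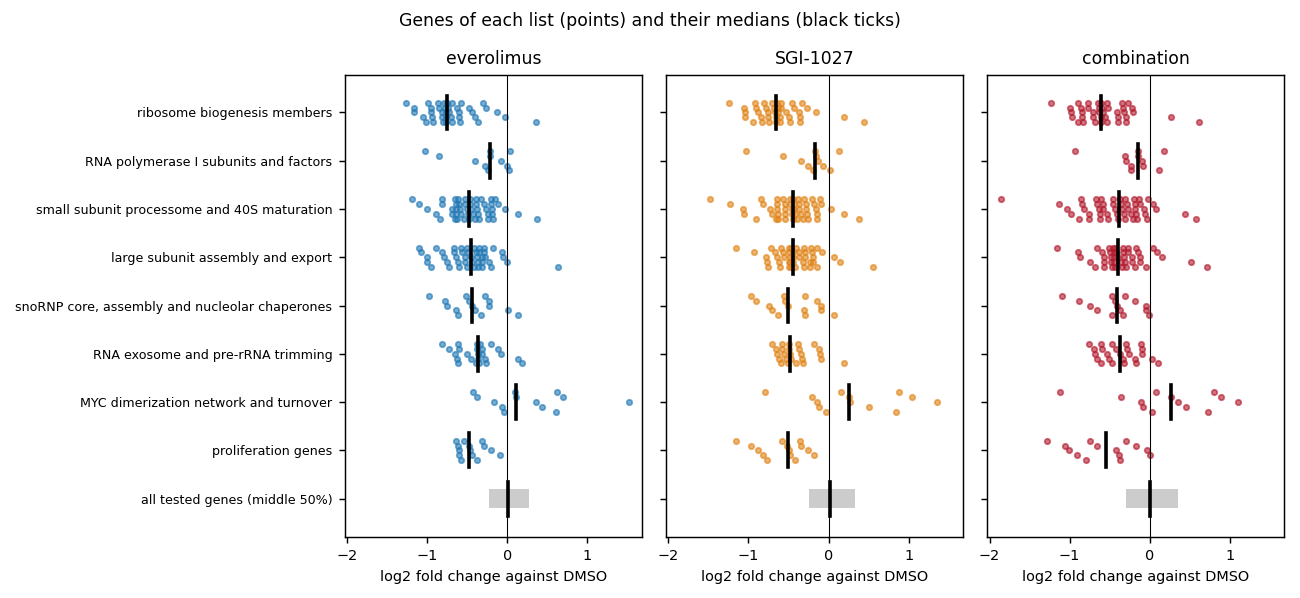
Log2 fold change against DMSO of the genes of each list (points) in EVER, SGI and COMB, with list medians as black ticks and the middle 50% of all tested genes as a grey bar. The 40 genes (top row) have the lowest medians (-0.76, -0.66 and -0.61), and the medians of the 5 further ribosome biogenesis lists lie between these and 0. The median of the proliferation genes lies left of 0 and that of the MYC network right of 0. Single genes of the MYC network lie on both sides of 0.

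Since MYC and the MXD proteins bind the E-box, the promoters were searched for CACGTG, which reads the same on both strands. RefSeq promoters of the build GRCh38.p14, from 250 bases before to 50 bases after a gene's start, were given for 34 of the 40 genes. None was given for MYC, NOP58, NOLC1, RRP12, BOP1 and RRS1, which were not searched. The motif was found in 14 of the 34 (41.2%), in 26.4% of the genes of the 5 further lists, in 11.6% of all genes of the count table with a promoter and in 7.26% of all promoter windows. In all 14 genes the motif nearest to a start lay within 50 bases of it, from 31 bases before to 43 bases after, whereas this held for 40.8% of all genes of the table with the motif. It was present in 7 of 10 small subunit genes, 3 of 11 large subunit genes, 2 of 5 snoRNP genes, 2 of 4 abundant nucleolar proteins and 0 of 4 polymerase I genes. Shown here are the 3 genes with the motif and the lowest log2 fold change in COMB, as short stretches with the motif in capitals: EBNA1BP2 (chr1:43172241-43172260, minus strand, motif starting at base 43 after the start), LTV1 (chr6:143843354-143843383, plus strand, base 29 after the start) and DDX21 (chr10:68956604-68956633, plus strand, motif starting 31 bases before the start).
EBNA1BP2: gcgattcggtggCACGTGga
LTV1: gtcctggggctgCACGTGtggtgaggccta
DDX21: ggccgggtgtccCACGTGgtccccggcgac

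The 3 genes shown fell by 0.97, 0.90 and 0.86 in COMB. BOP1 (log2 fold change -1.23 in COMB) and RRP12 (-0.89) had no promoter given and could not enter this choice. Over the 14 genes with the motif the median log2 fold change was -0.81 in EVER, -0.72 in SGI and -0.70 in COMB, and over the 20 genes with a promoter and no motif it was -0.64, -0.61 and -0.54. These medians are a description, and no test was made of the difference. A motif in a sequence does not show that a protein was bound there.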

How the data were processed

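RNA sequencing of 786-O cells in 4 groups of 3 libraries was used. The authors deposited raw counts per gene symbol, which are whole numbers and not normalized, and FPKM values for the same genes and libraries, which they scaled by gene length and library size. The aligner, the counting program and its strand setting are not given in the sources used here. The submitters' processing notes name the mouse builds GRCm38 and mm10, although the rows are human symbols, so the only coordinates given are those of promoter stretches in RefSeq's GRCh38.p14. The labels name an RNeasy extraction and a SMARTer kit, while the study's methods describe TRIzol and a TruSeq Stranded kit.

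The counts were fitted with edgeR 4.0.16 under R 4.3.3. Genes passing filterByExpr (12841 of 17085) entered 1 quasi-likelihood fit of all 12 libraries with TMM factors, a prior count of 0.125 for fold changes and group as the only term. P-values were adjusted with the Benjamini-Hochberg method over all tested genes and called under 0.05, with no minimum fold. CPM values are TMM-normalized, and 95% intervals are not adjusted for multiple tests. The 7 contrasts were each treated group against DMSO, COMB against EVER, COMB against SGI, SGI against EVER and the interaction. Replicate pairs of a group differed by more than sampling noise (chi-square per gene from 3.04 to 16.4), so no library was counted as a duplicate. Depth was 37046231 to 41516976 counts per library. Total depth does not set the counting error of a single gene. That error was not compared gene by gene with the spread between the 3 libraries of a group. The procedure was tested on simulated data.

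The 40 genes, the further lists and the tests were chosen with earlier results of these data known. Named by rule were all 40 genes, with values per library for MYC, the 3 lowest and 3 highest genes in COMB against DMSO, the gene of each role with the smallest p there and the 3 smallest interaction p-values. Of each further list the 2 lowest and 2 highest called genes were named, if their mean count was 50 or more. NHP2 and NOP56 were given by library after their values were seen. Of 14 listed snoRNA host transcripts none was matched by symbol in the table. Alternatives were DESeq2 1.42.0, upper-quartile factors, no filter, at least 10 counts in every library, a replicate block, limma 3.58.1 on log2(FPKM + 1) and log2(FPKM + 0.1), and leaving out each library.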

Additional observations from a re-analysis of the deposited data

Results flagged for a closer look

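For 36 of the 40 genes the change with everolimus differed according to whether SGI-1027 was also given, by edgeR's quasi-likelihood test of the interaction (adjusted p under 0.05 over all tested genes). By the same test the interaction was above 0 for 23.6% of all tested genes, 81.5% of the 5 further lists and 85.7% of the proliferation genes. Over the 40 genes the median difference of COMB was 0.12 from EVER and 0.04 from SGI. Each value below is the log2 fold change in COMB minus the sum of those in EVER and SGI, and each is above 0. For RNA polymerase I transcription it was 0.67 for POLR1B, 0.50 for POLR1A and 0.31 for RRN3. The snoRNP genes gave 0.997 for DKC1, 0.84 for NOP56, 0.72 for FBL, 0.67 for NOLC1, 0.55 for GAR1 and 0.37 for NOP58. Among the abundant nucleolar proteins it was 1.08 for DDX21, 0.75 for NCL, 0.74 for GNL3 and 0.68 for NPM1. Genes of small subunit assembly had 1.31 for RRP12, 1.09 for UTP20, 1.0035 for RRP9, 0.99 for BYSL, 0.99 for UTP15, 0.92 for NOP14, 0.91 for LTV1, 0.80 for UTP4, 0.77 for WDR43, 0.63 for TSR1 and 0.59 for NOB1. Genes of large subunit assembly had 1.35 for NOP16, 1.22 for RRS1, 1.18 for BOP1, 1.05 for NOP2, 0.85 for WDR74, 0.82 for NIP7, 0.82 for BRIX1, 0.79 for RRP1, 0.75 for NOC2L, 0.74 for PES1, 0.74 for EBNA1BP2 and 0.60 for WDR12. The standard errors ran from 0.05 for NPM1 to 0.15 for UTP15, and the largest adjusted p was 0.0065, for RRN3. If everolimus alone was given at the 10 µM of the protocol and not at the 5 µM of the label, these sums mix 2 doses.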

How the results depend on the processing

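Against DMSO the counts of genes lower and higher at an adjusted p under 0.05 moved by at most 1 under every alternative run, and UBTF was the 1 gene whose call was lost. The 36 interactions above 0 were called under each alternative run. No gene reversed direction while called. DESeq2 called 8 genes higher in COMB than in SGI in place of 5, and leaving out 1 library at a time gave 1 to 7. The count of interactions below 0 was 1 in place of 0 with upper-quartile factors (MYC, -0.26, adjusted p = 0.0212), and 0 to 1 when libraries were left out. Past the cut-off on fold size, upper-quartile factors left 3 genes lower in EVER in place of 5 and 2 in SGI in place of 4, and no filter gave 2 in COMB in place of 1, where leaving out libraries gave 1 to 3. Between treated groups single calls moved more often: of 760 values of a gene under an alternative in each comparison, 28 lost and 3 gained a call in COMB against EVER, 22 and 14 in COMB against SGI and 20 and 6 in SGI against EVER. The cause of these moves was not tested. Replicate numbers did not pair libraries across groups (correlations of deviations from -0.35 to 0.0902 over 18 pairs). With a replicate block, 37 genes were lower in EVER, 38 in SGI and 38 in COMB, as without it, and 278 of 280 calls of a gene in a comparison were the same. NOP14 in COMB against SGI (adjusted p = 0.0717) and UTP4 in SGI against EVER (adjusted p = 0.052) were lost. With upper-quartile factors the median log2 fold change of all genes against DMSO was 0.06 to 0.08 in place of 0.00 to 0.02.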
